A study of Mus musculus with 6 samples.

Results

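Complement and coagulation genes were examined as a set of 48 genes among the 43346 genes of the count table, chosen by symbol: complement factors, their receptors and membrane inhibitors, clotting factors, fibrinogen chains and plasminogen, with serpins left out. From general knowledge of their sites of synthesis, 35 of them were treated as hepatocyte-made, 6 as macrophage-made (the 3 C1q chains and the 3 receptors for C3a and C5a) and 7 as neither. All 48 passed the filter on low counts. RNA came from livers of mice, all on the FFC diet, in a dietary model of metabolic dysfunction-associated steatohepatitis, and the study silenced S100a11 with an adeno-associated virus 8 (AAV8) construct. The titles of libraries 2, 3 and 2600 name an shRNA and S100a11 (genotype: knockdown (KO)), and those of libraries 28, 30 and 31 an shRNA and SCRAMBLE (genotype: control). The construct's promoter, the strain, age and sex of the mice and the length of the diet were not stated, and no library from a normal diet was analysed here. Whether each library is a different animal is not stated either, so the p-values reflect only variation among these 6 libraries, part of which may be technical.

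Complement is a cascade of plasma proteases. C1q, bound to antibody or to dying cells, starts the classical pathway, and mannose-binding lectins start the lectin pathway. Both lead to cleavage of C3 and C5, which releases the peptides C3a and C5a that act on receptors of myeloid cells, and to the membrane attack complex. Coagulation is a parallel cascade that ends in thrombin and fibrin. The liver makes most of the plasma proteins of both cascades in hepatocytes, whereas C1q and the receptors for C3a and C5a come mainly from macrophages and other myeloid cells.

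Depth was 53517387 to 78091845 counts per library, and levels are given as CPM, each gene's count relative to the library total after TMM scaling, which adjusts for differences in composition between libraries. S100a11 stood at 16.0, 3.55 and 3.41 CPM in libraries 2, 3 and 2600 and at 15.9, 22.9 and 30.0 CPM in scrambled libraries 28, 30 and 31. Library 2 therefore held as much S100a11 as the lowest scrambled library, and each direction below is that of the libraries labelled S100a11 shRNA. The S100a11 change was -1.58 ± 0.56 on the log2 scale (SE, edgeR adjusted p = 0.10, exact two-sided permutation p = 0.2; with 3 and 3 libraries this test cannot go below 0.1). The non-coding gene Gm26917 took 3.99% to 10.8% of counts in libraries 2, 3 and 2600 and 3.16% to 4.42% in the other libraries.

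Promoter windows were read for 37 of the 48 genes from RefSeq (build GRCm38.p6, which is mm10), as the 250 bases before the annotated start. The 4 windows below show C5ar1, C3ar1 and C1qb, the macrophage-made genes past the threshold, and Fgb, a hepatocyte-made fibrinogen chain that did not pass. Capitals mark GGAAGT, the core of sites for ETS factors such as the myeloid factor PU.1 (C5ar1, C3ar1, C1qb), and TTGCNNAA and TTCNNNGAA, forms of C/EBP and STAT sites (Fgb), on either strand.
C5ar1: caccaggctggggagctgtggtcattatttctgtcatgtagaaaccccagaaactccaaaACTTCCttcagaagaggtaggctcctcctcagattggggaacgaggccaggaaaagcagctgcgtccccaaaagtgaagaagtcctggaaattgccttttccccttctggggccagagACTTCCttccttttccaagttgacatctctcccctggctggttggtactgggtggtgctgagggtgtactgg
C3ar1: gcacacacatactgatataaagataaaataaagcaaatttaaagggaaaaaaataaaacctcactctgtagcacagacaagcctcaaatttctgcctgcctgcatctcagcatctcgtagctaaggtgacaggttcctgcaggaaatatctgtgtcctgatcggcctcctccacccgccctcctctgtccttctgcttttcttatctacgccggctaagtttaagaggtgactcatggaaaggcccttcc
C1qb: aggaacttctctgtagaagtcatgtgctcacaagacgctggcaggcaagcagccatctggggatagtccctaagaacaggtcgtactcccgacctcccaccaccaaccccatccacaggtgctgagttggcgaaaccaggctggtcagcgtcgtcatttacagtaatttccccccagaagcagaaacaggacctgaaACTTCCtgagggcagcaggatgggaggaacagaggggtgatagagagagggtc
Fgb: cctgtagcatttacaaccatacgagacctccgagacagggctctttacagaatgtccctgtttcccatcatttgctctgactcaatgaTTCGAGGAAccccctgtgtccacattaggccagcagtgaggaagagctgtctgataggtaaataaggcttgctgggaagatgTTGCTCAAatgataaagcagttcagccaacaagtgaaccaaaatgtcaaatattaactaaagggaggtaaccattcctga

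The windows lie at chr7:16259339-16259588 (minus strand, C5ar1), chr6:122856158-122856407 (minus, C3ar1), chr4:136886201-136886450 (minus, C1qb) and chr3:83049864-83050113 (minus, Fgb). Each is written 5′ to 3′ on the strand of its gene. C5ar1 held GGAAGT 2 times, with first bases 190 and 72 bases before the start, C1qb held it once, 53 bases before the start, and C3ar1 did not hold it. The Ensembl model of C5ar1 starts further upstream, so that its short first exon lies inside this window. Both GGAAGT matches of C5ar1 lie downstream of that Ensembl start, so they precede the start in the RefSeq annotation only. In all, 4 of the 5 macrophage-made genes with a window held GGAAGT (C1qb, C1qc, C5ar1 and, in 1 of its windows, C5ar2), against 3 of 26 hepatocyte-made genes and 19.7% of the 32851 windows of the table. TTGCNNAA was in 8 of the 26 hepatocyte-made genes (9.56% of all windows) and TTCNNNGAA in 6 (7.02% of all windows). Fga and Fgb held both of these, while Fgg held neither. Forms of sites for the transcription factors HNF1 and HNF4 were searched for as well. The HNF1 form was in 2 of the 26 hepatocyte-made genes, F13b and Hc (0.371% of all windows). The HNF4 form was in 0 of the 26 (1.2% of all windows). A match is a run of letters, not a measured binding site. Matches of different motifs overlapped in 1 of the 40 windows, that of C7.

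In the libraries carrying the S100a11 label, 9 of the 48 genes were higher and 4 lower (edgeR, adjusted p under 0.05). Over all 19352 genes tested 13.2% passed, 5.46% higher and 7.69% lower. The 4 that fell were the C5a receptor C5ar1, the C3a receptor C3ar1, the C1q chain C1qb and the terminal component C7. The 9 that rose were the factor D gene Cfd, the membrane inhibitor Cd55, and 7 hepatocyte-made genes, C8b, Masp2, Proc, Mbl1, F13b, F10 and C1ra. By source, the macrophage-made genes gave 3 falls and 0 rises of 6, and the hepatocyte-made genes 7 rises and 0 falls of 35. At an unadjusted p under 0.05 these became 5 lower of 6 and 22 higher of 35, with 0 in the opposite direction, and DESeq2 and limma voom also called 0 in the opposite direction. The share of all tested genes at this unadjusted cut is not given here, and the 13.2% above is not its background. Median log2 changes of the macrophage-made and hepatocyte-made genes were -0.90 and 0.48, beside 0.04 for all tested genes. C5ar1, C3ar1 and Cfd passed the threshold under each of the 13 alternatives run, and each of the other 10 lost its call under at least 1 of them.

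**Figure D1:**
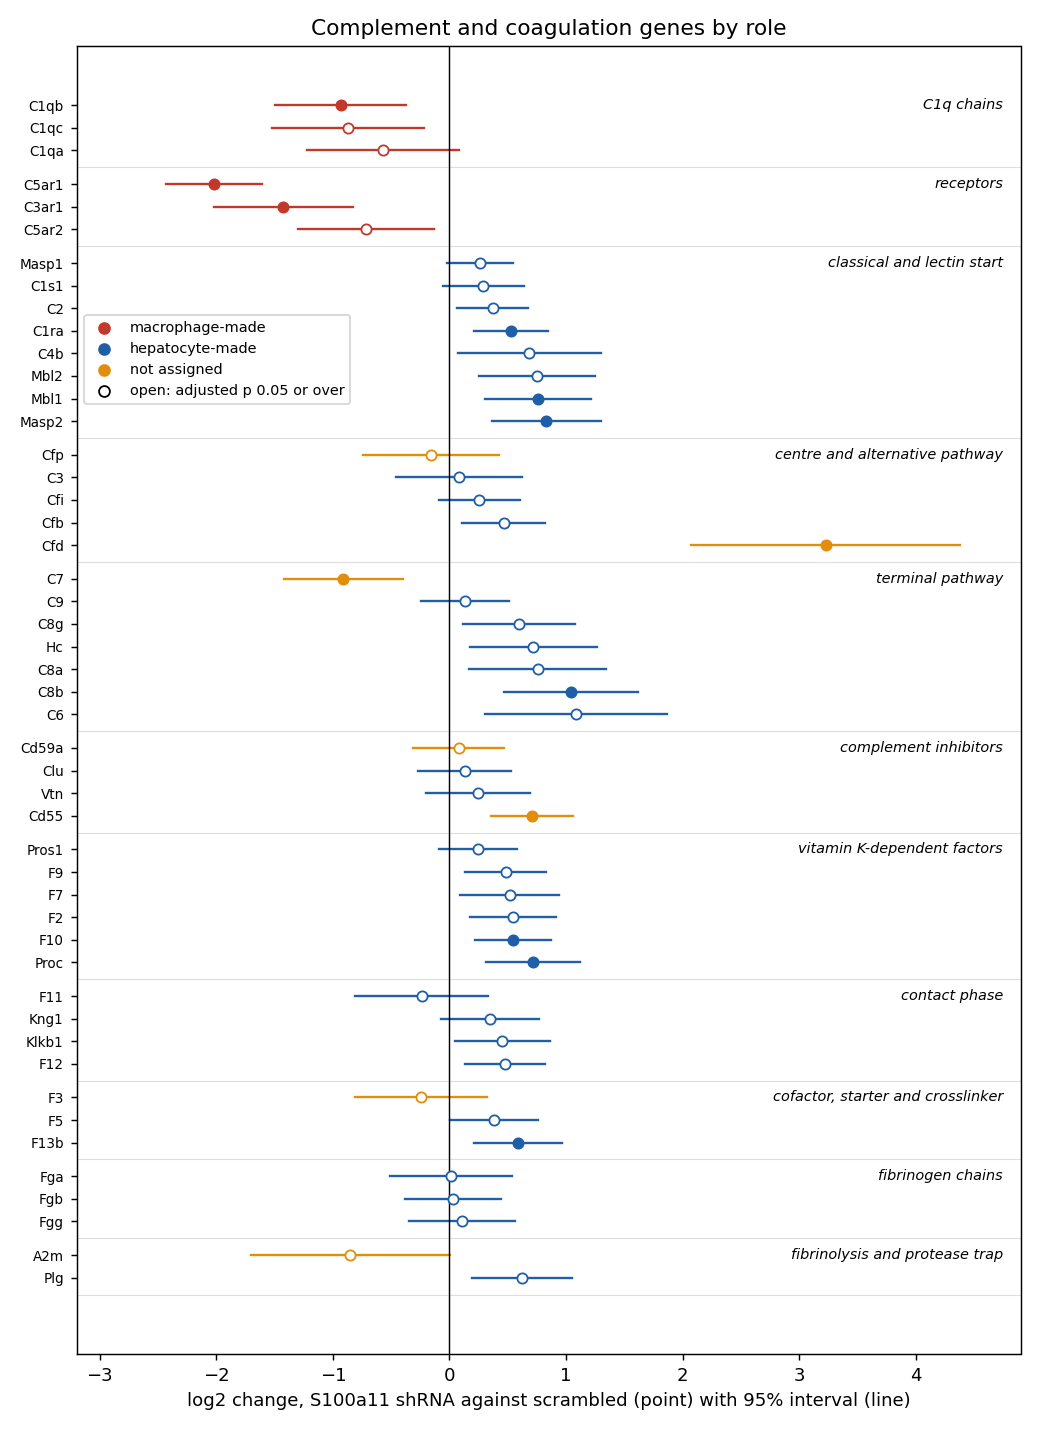
The log2 change between the libraries labelled S100a11 shRNA and the scrambled libraries (horizontal axis) is shown for each of the 48 genes, grouped by role, as a point with its 95% interval from the edgeR fit (3 libraries per group). Filled points passed an adjusted p of 0.05; the macrophage-made genes (red) all lie below 0 and 34 of 35 hepatocyte-made genes (blue) above it with TMM scaling, 22 of 35 with library totals alone.

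C5ar1, the main signalling receptor for C5a, was the most strongly reduced of the 48. It stood at 3.05, 2.77 and 3.68 CPM in libraries 2, 3 and 2600 and at 12.1, 12.02 and 14.4 CPM in scrambled libraries 28, 30 and 31. The groups were far apart and the spread within each was small (3.17 ± 0.47 against 12.8 ± 1.33 CPM, SD, n = 3 each). The fall was 4.06-fold, -2.02 ± 0.18 on the log2 scale (SE, edgeR adjusted p = 0.0027), and it was as large without library 2 (-2.03) although S100a11 was not reduced there. Neutrophils also carry C5ar1. Of 4 tested neutrophil markers none passed with edgeR (1 at an unadjusted p under 0.05), but all 4 had negative log2 changes (median -0.59). The sum of all 5 listed was 11.3 to 21.9 against 20.9 to 23.4 CPM. Most of it was Csf3r (10.5 to 19.6 against 19.2 to 21.2 CPM). S100a8, S100a9, Cxcr2 and Retnlg were low, reaching at most 1.19 CPM (S100a9). The part of neutrophils in the fall of C5ar1 was not tested. C5ar1 (ENSMUSG00000049130) is a minus-strand gene at chr7:16246743-16259540 (mm10).

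C3ar1, the receptor for C3a, stood at 12.1, 6.33 and 11.1 CPM in libraries 2, 3 and 2600, against 22.7, 22.9 and 33.6 CPM in scrambled libraries 28, 30 and 31. The groups did not overlap, which held for 18.1% of all tested genes in this direction. The fall was 2.69-fold (9.83 ± 3.08 against 26.4 ± 6.22 CPM, SD, n = 3 each, edgeR adjusted p = 0.012). C5ar2, the second C5a receptor, which does not couple to G proteins, lies beside C5ar1 on chromosome 7. It stood at 4.38, 4.49 and 7.96 CPM in libraries 2, 3 and 2600 and at 9.10, 7.89 and 10.5 CPM in scrambled libraries 28, 30 and 31. Library 2600 overlapped scrambled library 30, and the log2 change of -0.72 ± 0.26 (SE) did not pass (edgeR adjusted p = 0.10; 95% interval -1.30 to -0.13). Without library 2600 it was -1.06, with an adjusted p of 0.018.

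The 3 C1q chains are encoded side by side on chromosome 4 (136880129 to 136898803, minus strand) and assemble into 1 protein. C1qb stood at 76.8, 39.7 and 64.0 CPM in libraries 2, 3 and 2600 and at 110.1, 95.8 and 139 CPM in scrambled libraries 28, 30 and 31. It fell 1.91-fold, from 114.9 ± 22.0 to 60.2 ± 18.9 CPM (SD, n = 3 each, edgeR adjusted p = 0.041), and its groups did not overlap. C1qc stood at 78.8, 36.3 and 63.5 CPM against 95.4, 90.2 and 140.8 CPM in the same order of libraries. Its groups did not overlap, but the log2 change of -0.87 ± 0.29 (SE) did not pass (edgeR adjusted p = 0.080). C1qa stood at 57.2, 28.6 and 59.1 CPM against 65.1, 57.2 and 92.5 CPM, with libraries 2 and 2600 level with scrambled library 30 (log2 change -0.57 ± 0.29, SE, edgeR adjusted p = 0.23). Library 3 was the lowest of its group for all 3 chains, and scrambled library 31 the highest of all 6. The C1qb call ended when any 1 of libraries 3, 2600, 28, 30 or 31 was left out (edgeR adjusted p of 0.080 to 0.13). With library totals alone, all 6 macrophage-made genes passed, but the genes called lower among all those tested also went from 1489 to 3804.

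**Figure D2:**
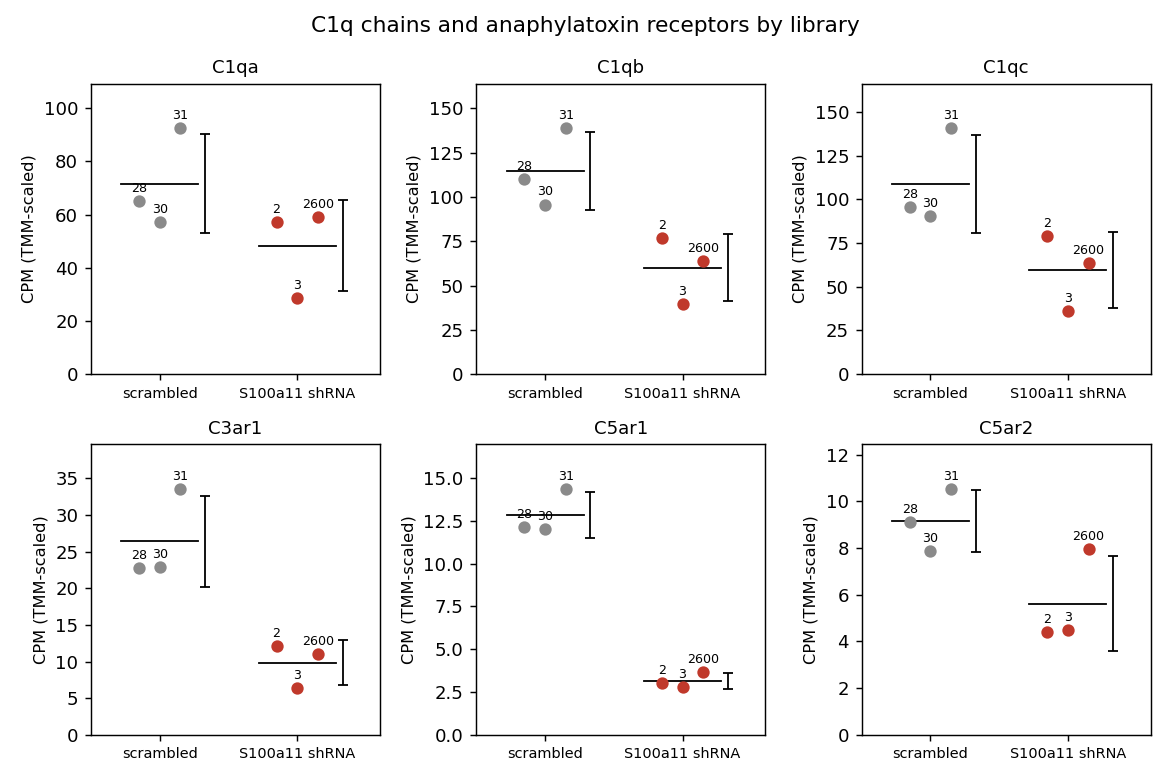
TMM-scaled CPM of the C1q chains (upper panels) and the receptors (lower panels) in each library, numbered as in the labels, with the group mean (line) and SD (bar, n = 3). C5ar1, C3ar1, C1qb and C1qc do not overlap between the groups, and C1qa and C5ar2 do.

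General macrophage markers moved with these genes. Of 8 such markers (Adgre1, Cd68, Csf1r, Cd14, Mpeg1, Lyz2, Ctss and Laptm5) 4 fell and 0 rose, with a median log2 change of -1.01. Their summed level was 271 to 527 CPM in libraries 2, 3 and 2600, below the 615 to 875 CPM of the scrambled libraries. In whole liver, fewer macrophages and less RNA per macrophage cannot be told apart. Among 5 markers of lipid-associated macrophages (Trem2, Gpnmb, Spp1, Cd9 and Lpl; Spp1 is also a bile duct gene) all 5 fell, with sums of 96.7 to 198 against 632 to 798 CPM. All 5 bile duct cell markers (Krt19, Krt7, Epcam, Sox9 and Spp1) fell as well, with sums of 39.6 to 75.1 against 242 to 356 CPM, and the part of either list in these results was not tested. Of 6 markers of resident Kupffer cells (Clec4f, Timd4, Vsig4, Cd5l, Marco and Cd163) 1 rose, Timd4, and 0 fell, with sums of 151 to 411 against 205 to 363 CPM. Their log2 changes were 4 positive and 2 negative (Vsig4 -0.54, Cd5l -0.42), but 1 of the positive ones was about 0 (Clec4f, 0.0005). The median of 1.16 falls between Clec4f and Timd4 (2.32), so it describes no typical marker. Marco and Cd163 were highest in library 2600 (Marco 0.62, 0.88 and 20.7 CPM, Cd163 0.57, 6.41 and 27.8 CPM in libraries 2, 3 and 2600), and neither passed.

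The C1q chains and the receptors were also expressed relative to the 8 general markers. Per 100 CPM of these markers the C1q chains summed to 40.4, 38.5 and 42.5 CPM in libraries 2, 3 and 2600 and to 40.4, 39.6 and 42.6 CPM in scrambled libraries 28, 30 and 31. This ratio was nearly the same in all 6 libraries (40.5 ± 2.01 against 40.9 ± 1.55, SD, n = 3 each). C5ar1 per 100 CPM of markers was 0.58, 1.02 and 0.84 in libraries 2, 3 and 2600 and 1.81, 1.96 and 1.64 in libraries 28, 30 and 31. C3ar1 gave 2.30, 2.33 and 2.52 against 3.40, 3.73 and 3.84. Both were thus lower relative to the summed markers in each library labelled S100a11 shRNA, with no overlap between the groups. The C1q ratio and that of C5ar2 (0.83 to 1.81 against 1.21 to 1.36) overlapped. These ratios, and the difference between them, were not tested. They do not depend on how libraries were scaled, but they do depend on which markers were summed. Log2 changes of the 8 markers ranged from -1.75 (Cd14) to -0.40 (Adgre1). C3ar1, at -1.43, fell less than Cd14, and the C1q chains, at -0.93 to -0.57, fell less than some markers and more than others.

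**Figure D3:**
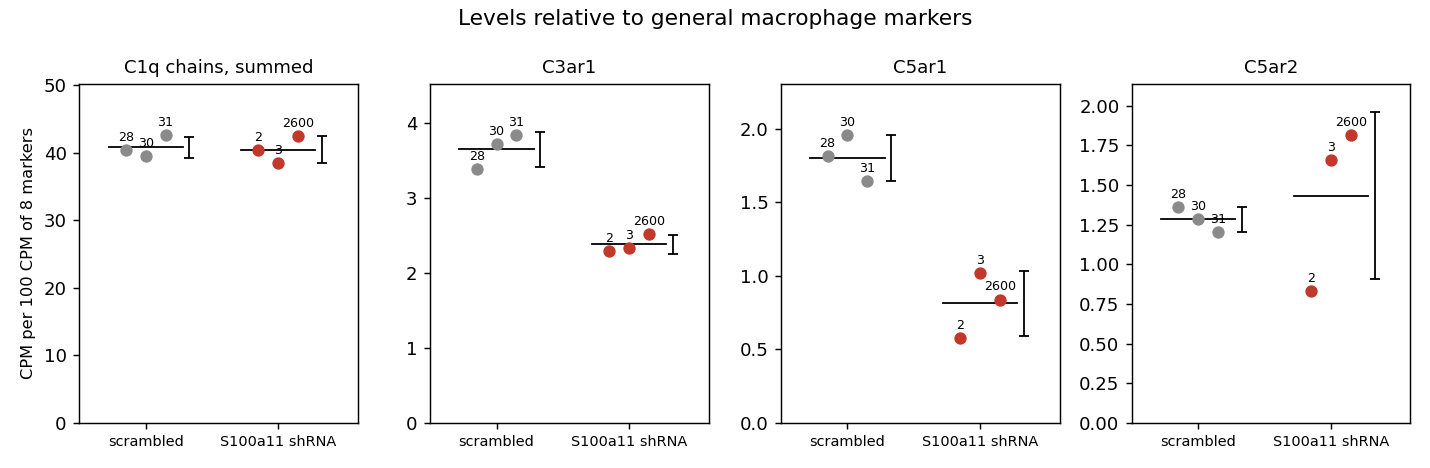
CPM per 100 CPM of 8 summed general macrophage markers (vertical axes) for the summed C1q chains, C3ar1, C5ar1 and C5ar2 in each numbered library, with the group mean (line) and SD (bar, n = 3). The C1q ratio lies between 38.5 and 42.6 in all 6 libraries, whereas C3ar1 and C5ar1 are lower in each library labelled S100a11 shRNA.

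Properdin (Cfp), which stabilises the alternative pathway convertase and is made by leukocytes, did not pass (29.0, 24.6 and 49.3 CPM in libraries 2, 3 and 2600 against 42.3, 30.7 and 41.5 CPM in libraries 28, 30 and 31). Its log2 change was -0.16 with a 95% interval of -0.74 to 0.43, and per 100 CPM of macrophage markers it was 5.50, 9.07 and 11.2 against 6.33, 5.001 and 4.74.

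Of the hepatocyte-made factors 7 rose and 28 did not pass. With TMM scaling 34 of the 35 had a positive log2 change, from -0.24 (F11) to 1.08 (C6), and in 22 of 35 the groups did not overlap with the higher values in the libraries labelled S100a11 shRNA (16.5% of all tested genes in this direction). Their summed level was 28370, 29730 and 37100 CPM in libraries 2, 3 and 2600 and 27670, 22800 and 26000 CPM in scrambled libraries 28, 30 and 31. Library 2 stood close to scrambled library 28. Library 2 was the lowest of its group for 24 of the 35 genes, and scrambled library 30 the lowest of its group for 30 of the 35.

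Other hepatocyte genes were examined beside them. Of 8 hepatocyte markers (Alb, Apoa1, Apob, Ttr, Ahsg, Cps1, Hnf4a and Ttc36) 1 rose, Ttc36, and 0 fell, with a median log2 change of 0.41 and sums of 46260 to 62040 against 36270 to 45820 CPM. Among 12 transcription factors and cytokine receptor genes that act on hepatocyte secretory genes, 6 rose and 0 fell, among them Foxa1, Cebpb, Ppara and Il6ra. Il6ra, the interleukin 6 receptor, stood at 109.5, 141.4 and 112.4 CPM in libraries 2, 3 and 2600 against 51.1, 61.7 and 64.3 CPM in libraries 28, 30 and 31 (edgeR adjusted p = 0.0075). Whether these had a part in the changes of the 35 factors was not tested.

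The hepatocyte-made calls depended on the scaling. With library totals alone the median log2 change of all tested genes was -0.32 instead of 0.04, that of the hepatocyte-made factors 0.11 instead of 0.48, and 22 of 35 were positive. None of the 7 calls was made then (0 at an adjusted p under 0.05 with edgeR). DESeq2, with its own scaling, called 16, and limma voom, with TMM factors as in the main fit, called 17. Relative to the median of all genes the factors stood at 0.44 (TMM) and 0.43 (library totals alone), and the macrophage-made genes at -0.94 by either scaling. Leaving out library 3, 2600, 30 or 31 also left 0 hepatocyte-made calls, leaving out library 28 left 1, and leaving out library 2 gave 15.

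**Figure D4:**
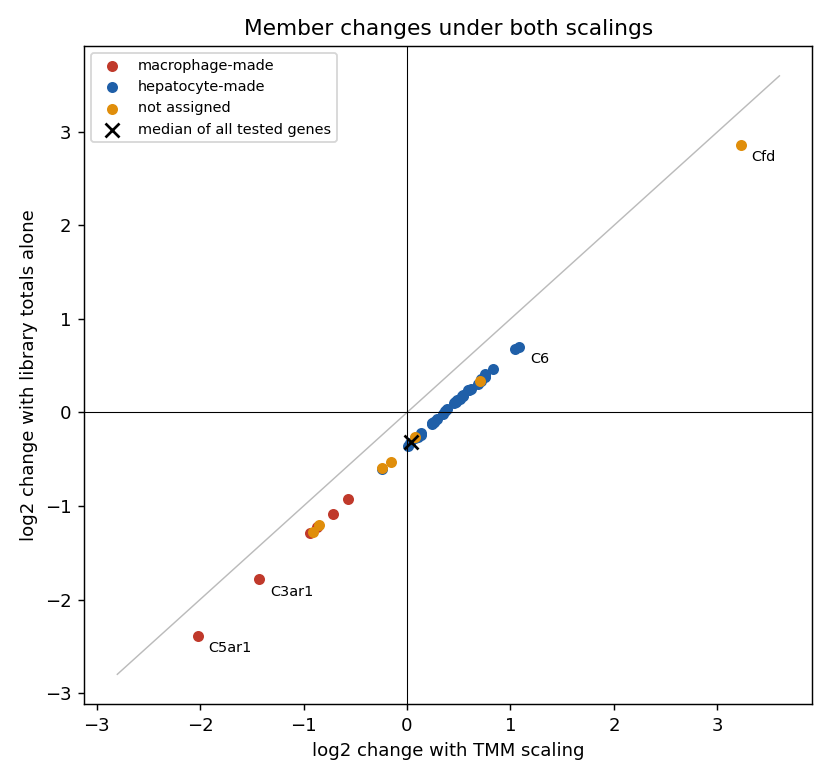
The log2 change of each of the 48 genes with TMM scaling (horizontal) and with library totals alone (vertical); the grey line marks equal values and the cross the median of all tested genes, at 0.04 and -0.32. All points lie below the line by a similar amount, so C5ar1, C3ar1 and Cfd keep their direction and many hepatocyte-made genes fall to about 0.

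At the start of the classical and lectin pathways, 3 of 8 genes rose, beside 5.46% of all tested genes. With TMM all 8 were higher with no overlap between the groups, which held for 16.5% of all tested genes. With library totals alone C1s1 and Masp1 were lower (log2 changes of -0.07 and -0.10). Masp2, the protease that mannose-binding lectins use to cleave C4 and C2, stood at 318.7, 548.5 and 420.8 CPM in libraries 2, 3 and 2600 and at 257, 233.2 and 234.5 CPM in libraries 28, 30 and 31. It was 1.78-fold higher (edgeR adjusted p = 0.033). Mbl1, a mannose-binding lectin, stood at 101.5, 144.1 and 174.7 CPM against 89.1, 75.1 and 84.0 CPM (1.69-fold, edgeR adjusted p = 0.041), and its relative Mbl2 was 1.68-fold higher without passing (edgeR adjusted p = 0.054). C1ra, a protease subunit of C1, stood at 130.3, 139.3 and 126.1 CPM against 96.6, 79.5 and 98.1 CPM (1.44-fold, edgeR adjusted p = 0.041). Masp2 overlaps Tardbp, which lies on the other strand. The strand setting of the counting is not given, so reads of the overlap cannot be told apart.

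In the centre of the cascade C3, the most abundant complement transcript per length, did not differ beyond the spread. It stood at 5931, 3771 and 6048 CPM in libraries 2, 3 and 2600 and at 4841, 4242 and 5793 CPM in libraries 28, 30 and 31, a log2 change of 0.08 with a 95% interval of -0.46 to 0.62. Cfb, the protease of the alternative pathway convertase, was 1.38-fold higher without passing (edgeR adjusted p = 0.088), and Cfi, which inactivates C3b, 1.195-fold higher (edgeR adjusted p = 0.31). C2 and Cfb are neighbours on chromosome 17. A read-through gene, Gm20547, spans both and held 109% of the Cfb count and 924% of the C2 count. How reads of the shared exons were counted is not stated, so the levels of C2 and Cfb are uncertain.

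Cfd, the gene of factor D or adipsin, the protease that activates factor B, had the largest rise of the 48 genes, by TMM or by library totals alone. It stood at 9.45, 47.4 and 23.6 CPM in libraries 2, 3 and 2600 and at 3.26, 2.94 and 2.41 CPM in scrambled libraries 28, 30 and 31. Libraries 2, 3 and 2600 differed widely among themselves, yet each exceeded the highest scrambled library (26.8 ± 19.2 against 2.87 ± 0.42 CPM, SD, n = 3 each). The rise was 9.37-fold, 3.23 ± 0.51 on the log2 scale (SE, edgeR adjusted p = 0.0079), with log2 changes of 2.51 without library 3 and 3.596 without library 2. Adipocytes are the best known source of factor D. The adipocyte genes Adipoq, Plin1 and Lep stood at or near 0 in all libraries (at most 0.32, 0.34 and 0.59 CPM, each reached in library 3). In libraries 2, 3 and 2600 Adipoq was 0.02, 0.32 and 0.16 CPM, Plin1 0.03, 0.34 and 0.14 CPM, and Lep 0, 0.59 and 0 CPM. In scrambled libraries 28, 30 and 31 Adipoq was 0, 0.15 and 0.03 CPM, Plin1 0, 0.09 and 0.02 CPM, and Lep 0, 0.07 and 0.01 CPM. Scrambled library 30 thus exceeded library 2 for each of these genes, although its Cfd level was lower. Cidec, a lipid droplet gene that steatotic hepatocytes also express, stood at 90.9 to 155 CPM against 102 to 132 CPM. The cell source of the Cfd RNA was not tested. Cfd (ENSMUSG00000061780) is a plus-strand gene at chr10:79890853-79892656.

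Among terminal components 1 of 7 rose and 1 fell. C8b, a chain of C8, stood at 38.8, 77.4 and 61.7 CPM in libraries 2, 3 and 2600 and at 23.5, 28.1 and 34.6 CPM in libraries 28, 30 and 31 (2.06-fold higher, edgeR adjusted p = 0.031, or 0.077 with library totals alone). C6 varied widely among the libraries labelled S100a11 shRNA: 175, 520 and 435.6 CPM in libraries 2, 3 and 2600 against 160.8, 199.1 and 173.3 CPM. Library 2 lay within the scrambled range, and the log2 change of 1.08 ± 0.34 (SE) did not pass (edgeR adjusted p = 0.072), but did without library 2 (1.39, edgeR adjusted p = 0.0011). C8a was also lowest in library 2 of its group, with 356.4 CPM there and 642.3 and 762.3 CPM in libraries 3 and 2600, against 320.2 to 367 CPM. Hc, the gene of C5, gave 956.3, 1236 and 1821 CPM against 741.4 to 867.8 CPM (edgeR adjusted p = 0.083). C9, which forms the pore, gave 202.6 to 273.2 CPM against 189.8 to 233.9 CPM (log2 change 0.13, 95% interval -0.25 to 0.51).

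C7, which mesenchymal cells make, was the only terminal component of the 7 that fell. It stood at 6.99, 5.47 and 6.73 CPM in libraries 2, 3 and 2600 and at 9.36, 16.1 and 10.6 CPM in libraries 28, 30 and 31 (1.88-fold lower, edgeR adjusted p = 0.034). The call ended without library 3, 2600, 30 or 31 (edgeR adjusted p of 0.068 to 0.14). Of 6 stellate cell and fibroblast markers (Dcn, Lum, Col1a1, Pdgfrb, Reln and Des) 5 fell, with sums of 330 to 523 against 652 to 903 CPM, and their part in the fall of C7 was not tested.

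Of 4 complement inhibitors 1 rose. Cd55, decay accelerating factor, a membrane protein that dismantles convertases, stood at 39.3, 44.3 and 54.5 CPM in libraries 2, 3 and 2600 and at 31.1, 26.7 and 26.7 CPM in libraries 28, 30 and 31 (1.64-fold higher, edgeR adjusted p = 0.022). The call ended with library totals alone (edgeR adjusted p = 0.11) and without library 3, 28, 30 or 31 (0.052 to 0.11). Cd59a, which blocks the membrane attack complex, vitronectin (Vtn) and clusterin (Clu) had log2 changes of 0.08, 0.24 and 0.13 with TMM and -0.27, -0.12 and -0.24 with library totals alone, none past the threshold (edgeR adjusted p of 0.46 to 0.81 with TMM).

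**Figure D5:**
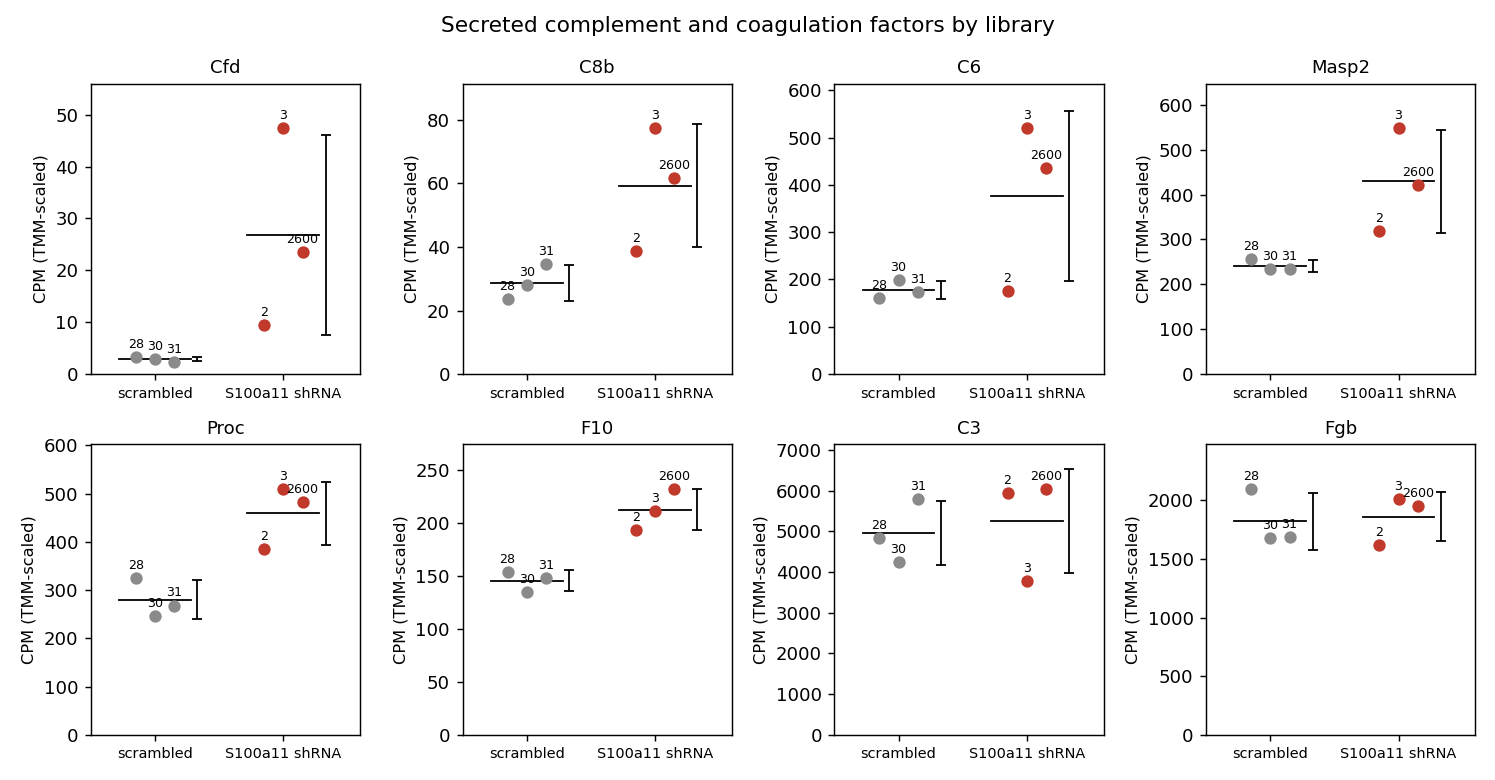
TMM-scaled CPM of 8 secreted factors in each numbered library, with the group mean (line) and SD (bar, n = 3). Cfd, C8b, Masp2, Proc and F10 do not overlap between the groups, C6 overlaps through library 2, and C3 and Fgb overlap widely.

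Among 6 vitamin K-dependent genes 2 rose. Proc, protein C, which inactivates clotting cofactors, stood at 385.8, 510.2 and 482.4 CPM in libraries 2, 3 and 2600 and at 324.6, 246.3 and 268.1 CPM in libraries 28, 30 and 31 (1.64-fold higher, edgeR adjusted p = 0.033). F10, factor X, which joins both starting routes of coagulation, stood at 193.4, 211.4 and 232.2 CPM against 153.9, 134.4 and 148.3 CPM (1.46-fold higher, edgeR adjusted p = 0.039). Prothrombin (F2) was 1.46-fold and F9 1.40-fold higher with no overlap between the groups, without passing (edgeR adjusted p = 0.058 and 0.072). F7 and the protein C cofactor Pros1 overlapped between the groups (edgeR adjusted p = 0.10 and 0.30). F13b, the carrier subunit of the factor that crosslinks fibrin, stood at 132.4, 133 and 128.7 CPM against 101.6, 69.0 and 91.6 CPM (1.504-fold higher, edgeR adjusted p = 0.049).

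None of the 4 contact phase genes passed (0 of 4 with edgeR, 2 at an unadjusted p under 0.05, and 1, F12, with DESeq2 and with limma voom). F12 was the nearest, with 407.5, 459.5 and 493.2 CPM against 338.1, 298.1 and 340.5 CPM (edgeR adjusted p = 0.071). F11 was the exception among the 35 hepatocyte-made genes: it stood at 29.6, 62.1 and 50.2 CPM against 64.0, 55.0 and 48.1 CPM, low in library 2 alone (log2 change -0.24, 95% interval -0.81 to 0.33). The prekallikrein gene Klkb1 overlaps Cyp4v3 on the same strand and may share its reads. Tissue factor (F3), which starts coagulation, was scarce at 3.73 to 7.10 against 5.84 to 7.54 CPM.

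None of the 3 fibrinogen chains passed. Fgg, the chain of lowest p, stood at 1497, 1655 and 2080 CPM in libraries 2, 3 and 2600, within or above the 1908, 1409 and 1534 CPM of libraries 28, 30 and 31 (edgeR adjusted p = 0.76). Fgb stood at 1619, 2010 and 1955 CPM in libraries 2, 3 and 2600 and at 2099, 1676 and 1684 CPM in libraries 28, 30 and 31. Log2 changes of Fga, Fgb and Fgg were 0.01, 0.03 and 0.11 with TMM, with 95% intervals of -0.51 to 0.53, -0.38 to 0.44 and -0.34 to 0.56, and -0.36, -0.33 and -0.26 with library totals alone. The groups overlapped for all 3 chains. With edgeR 0 of the 3 were called (0 at an unadjusted p under 0.05), and DESeq2 and limma voom also called 0. Log2 changes of C3, C9 and Clu, hepatocyte-made as well, were of the same order (0.08, 0.13 and 0.13). Plasminogen (Plg), the precursor of the protease that dissolves fibrin, was 1.54-fold higher with no overlap (1574, 1931 and 2178 CPM against 1392, 1093 and 1215 CPM) and did not pass (edgeR adjusted p = 0.063). A2m was near the floor, with 17 to 69 counts in a library.

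Per kilobase of gene length, the scrambled libraries ranked Fga first (1030 CPM per kb), followed by C3 (964), Fgg (773) and Vtn (570). C1qb, at 106 CPM per kb, stood at rank 18 of 48, among the hepatocyte-made factors. The receptors were near the foot of the order, with 6.14 (C3ar1), 4.995 (C5ar1) and 2.58 CPM per kb (C5ar2), and A2m was last at 0.13. Cfd moved from rank 46 with 3.11 CPM per kb to 29.1 CPM per kb in the libraries labelled S100a11 shRNA.

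A further 59 complement and coagulation genes outside the set were examined, of which 58 were tested: 7 rose and 9 fell, beside 5.46% and 7.69% of all tested genes. C4a, a near-identical copy of C4b known as sex-limited protein, whose expression in mice depends on androgen, stood at 172.3, 1105 and 920.5 CPM in libraries 2, 3 and 2600 and at 58.0, 74.2 and 49.9 CPM in libraries 28, 30 and 31 (12.1-fold higher, edgeR adjusted p = 0.0090). C4a made up 6.43%, 29.6% and 15.8% of the summed C4a and C4b level in libraries 2, 3 and 2600, and 2.37% to 3.56% in libraries 28, 30 and 31. How reads that match both copies were counted is not given, so their split is uncertain. C4b itself stood at 2508, 2626 and 4917 CPM against 2188, 2010 and 2051 CPM and did not pass (edgeR adjusted p = 0.13). Other rises of low p were those of the complement inhibitor Susd4 (6.01, 29.1 and 26.04 against 2.63, 3.01 and 2.19 CPM, 7.80-fold, edgeR adjusted p = 0.010) and ficolin A, Fcna (1.85-fold, edgeR adjusted p = 0.028).

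The falls of lowest p were Itgax, the alpha chain of complement receptor 4 (3.14-fold lower, edgeR adjusted p = 0.0042), F2rl1, a protease-activated receptor (4.33-fold, edgeR adjusted p = 0.0042), Plau, the urokinase plasminogen activator (2.29-fold, edgeR adjusted p = 0.0069), and Itgam, the alpha chain of complement receptor 3 (2.64-fold, edgeR adjusted p = 0.0088). Itgam stood at 5.19, 4.01 and 7.60 CPM in libraries 2, 3 and 2600 against 13.9, 14.8 and 15.4 CPM. These integrin chains are carried by myeloid cells, whose general markers were also lower. With library totals alone 2 of the further genes rose and 16 fell, while 379 of all tested genes rose and 3804 fell.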

How the data were processed

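Per the labels' protocols, 100 ng of liver RNA went into each Illumina stranded total RNA library after ribosomal RNA depletion. The authors deposited unnormalized counts for each Ensembl gene, with gene lengths. The build was mm10, per the submitters' processing notes; aligner, counting tool and strand option: not given in the sources used here.

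Group differences were computed from these counts with edgeR 4.0.16 (R 4.3.3): filterByExpr (minimum count 10, total 15) kept 19352 genes, libraries were scaled by TMM (factors 0.822 to 1.193), and groups of 3 were compared by the quasi-likelihood F test with Benjamini-Hochberg adjustment over all tested genes (threshold 0.05). The SE is the log2 change divided by the root of F. No 2 libraries of a group were duplicates (their lowest chi-square per gene was 48.4). The procedure was tested on simulated data.

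Alternatives were RLE, upper-quartile and no factors, 2 filters, DESeq2 1.42.0, voom with quality weights (limma 3.58.1) and leaving out each library. The genes, lists and roles were chosen with earlier results of these data known. Named in full were the macrophage-made genes, each gene past the threshold and, in roles with none, that of lowest p; others, chosen after their values were seen, are given beside them. Of the other pathway genes, those of lowest p in each direction were named, and a few items are not reported here.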

Additional observations from a re-analysis of the deposited data

How the results depend on the processing

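No paired analysis was possible because the replicate numbers in the labels are not shared between the groups. In the set of 48, the 9 rises became 5 with upper-quartile factors, 1 with library totals alone, 18 with DESeq2 and 19 with limma voom, and ranged from 1 to 17 when 1 library was left out. The 4 falls became 8 with library totals alone, and ranged from 2 to 5 when 1 library was left out. The 7 hepatocyte-made rises became 3 with upper-quartile factors, 0 with library totals alone, 16 with DESeq2 and 17 with limma voom, and ranged from 0 to 15 with 1 library left out. The 3 macrophage-made falls became 6 with library totals alone, 5 with DESeq2 and 5 with limma voom. The hepatocyte-made median of 0.48 became 0.11 with library totals alone. Among the other pathway genes the 7 rises became 2 with library totals alone, 13 with DESeq2 and 11 with limma voom, and ranged from 2 to 10 with 1 library left out, and the 9 falls became 16 with library totals alone and ranged from 4 to 11. Over all genes the 1057 rises became 379 with library totals alone, 1621 with DESeq2 and 1648 with limma voom, and ranged from 164 to 1756 with 1 library left out; the 1489 falls became 3804 with library totals alone and ranged from 369 to 2347. The causes were not tested, but leaving out a library leaves fewer samples. RLE factors and the filter of 1 CPM in 3 libraries changed no call among the 48. Of the 48 genes, A2m had the fewest counts (17 to 69 in a library).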
